A study of Homo sapiens with 10 samples.

Results

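The CDKN2A locus at 9p21 was examined in MDAMB231 cells, a mesenchymal, triple-negative human breast cancer line. Its members were 5 protein-coding genes of the short arm of chromosome 9, CDKN2A, CDKN2B, MTAP, DMRTA1 and ELAVL2, located by their GENCODE bounds on GRCh37 (hg19), out of 20098 protein-coding genes on chromosomes 1 to 22 and X. Peaks were taken on chromosome 9 between 20 and 24 Mb, a window that held 29 of the 128837 peaks of all lists. All 10 samples came from MDAMB231 cells grown in DMEM with 5% FBS, and no treatment is named for them. Histone marks were mapped by ChIP-seq, the sequencing of chromatin fragments captured with an antibody, for H3K4me1, H3K4me3 and H3K27Ac with 2 samples each, and FAIRE-seq, which isolates DNA free of nucleosomes, with 2 samples. Each method had 1 input sample. The 2 samples of an assay were combined by the authors into a single list of peaks, so no replicate error exists for any value given here. The lists held 18019 H3K4me3 peaks, 37495 H3K27Ac peaks, 26771 H3K4me1 peaks and 46552 FAIRE peaks, and they give no read depth.

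CDKN2A encodes, from separate first exons, p16, which inhibits the cyclin D kinases CDK4 and CDK6 and keeps the retinoblastoma protein active, and ARF, which binds and inhibits MDM2. The neighbouring CDKN2B encodes the related inhibitor p15, and MTAP encodes the enzyme that cleaves methylthioadenosine, a by-product of polyamine synthesis, for the salvage of methionine. The region is often deleted in tumours, frequently with MTAP, and a homozygous loss of CDKN2A is known for MDAMB231. H3K4me3 marks promoters, mostly CpG-rich ones, H3K27Ac marks active promoters and enhancers, and H3K4me1 marks enhancers and the flanks of promoters.

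The cell line was first checked by its markers, by asking whether a peak shared at least 1 base with the 1000 bases on either side of an annotated start site. The 6 mesenchymal markers VIM, ZEB1, AXL, CD44, CAV1 and MSN all had H3K4me3, H3K27Ac and FAIRE peaks there, and 5 of them, all but MSN, had H3K4me1. None of the 3 blood markers PTPRC, CD3E and SPI1 had a peak of any list there. Their observed over expected CpG ratios were 0.36, 0.29 and 0.46. Those of the 6 mesenchymal markers ran from 0.81 (CD44) to 1.13 (ZEB1). Over all genes, 5.70% had H3K4me3 below a ratio of 0.3, 23.9% from 0.3 to 0.6 and 85.8% at 0.6 or more. A part of cell type in this contrast, apart from CpG content, was not tested. Among 9 markers of other breast epithelial cells, 7 had H3K4me3, all but CDH1 and GRHL2, while H3K27Ac was found at 4, H3K4me1 at 2 and FAIRE at 5. The estrogen receptor gene ESR1, the progesterone receptor gene PGR and ESRP1 had H3K4me3 and no peak of another list. ERBB2 and EPCAM had peaks of all 4 lists, and CDH1 had H3K27Ac and FAIRE. Each of the 9 had a peak of some list, against 70.7% of all genes. No other breast epithelial cells were analysed, so these peaks do not set the line apart from them.

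None of the 5 members had a promoter peak in any list. Among all protein-coding genes, the same call was made for 67.3% by H3K4me3, 63.5% by H3K27Ac, 20% by H3K4me1, 39.3% by FAIRE and 70.7% by any of the 4 lists. Among genes with a CpG-rich promoter, defined by an observed over expected CpG ratio of 0.6 or more, 85.8% had H3K4me3. By this ratio, taken as the highest over the start sites of a gene, CDKN2A (1.17), ELAVL2 (0.95), MTAP (0.87) and CDKN2B (0.77) were CpG-rich, and DMRTA1 (0.55) was just below the limit.

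The promoters of the 3 best known members are shown because their CpG content is of the kind at which H3K4me3 was usually found, together with a promoter that carried the mark and a CpG-poor one. Each line gives the 250 bases before a start site, 5′ to 3′ on the strand of the gene, with every CpG in capitals. The sequences are from RefSeq (GRCh38.p14), and the coordinates were found by exact match to GRCh37. The ARF promoter of CDKN2A, chr9:21995324-21995573 on the minus strand, held 24 CpG and lay in an intron of the antisense transcript CDKN2B-AS1 and partly in an exon of an unnamed lncRNA. The p16 promoter of CDKN2A, chr9:21974857-21975106 on the minus strand, held 20 CpG, and its last 9 bases were annotated as UTR of CDKN2A. The start sites of this pair were 20.5 kb apart. The CDKN2B promoter, chr9:22009305-22009554 on the minus strand, held 18 CpG and lay in an intron of CDKN2B-AS1. The promoters of CDKN2A and CDKN2B were also inside an intron of a further lncRNA, which starts at MTAP. The MTAP promoter, chr9:21802385-21802634 on the plus strand, was intergenic and held 11 CpG. None of these 4 stretches lay within 1 Mb of a peak. FOCAD lies across the left edge of the peak-free span, and its promoter at chr9:20684008-20684257 on the plus strand, in introns of FOCAD and of its antisense transcript FOCAD-AS1, held 35 CpG and was covered by H3K4me3. The promoter of the interferon gene IFNA1, chr9:21440188-21440437 on the plus strand, held 2 CpG and lay in an exon of the lncRNA MIR31HG, which is on the opposite strand. Over the 300 bases that RefSeq gives, which run 50 bases past the start site, these promoters held 28, 26, 25, 15, 39 and 2 CpG in the order printed, against a median of 14 over all RefSeq promoters.
CDKN2A (ARF) promoter: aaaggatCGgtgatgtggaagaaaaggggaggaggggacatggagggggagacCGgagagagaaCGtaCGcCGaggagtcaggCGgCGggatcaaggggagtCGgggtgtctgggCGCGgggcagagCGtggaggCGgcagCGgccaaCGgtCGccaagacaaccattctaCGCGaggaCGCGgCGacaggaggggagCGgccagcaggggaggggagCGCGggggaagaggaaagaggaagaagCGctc
CDKN2A (p16) promoter: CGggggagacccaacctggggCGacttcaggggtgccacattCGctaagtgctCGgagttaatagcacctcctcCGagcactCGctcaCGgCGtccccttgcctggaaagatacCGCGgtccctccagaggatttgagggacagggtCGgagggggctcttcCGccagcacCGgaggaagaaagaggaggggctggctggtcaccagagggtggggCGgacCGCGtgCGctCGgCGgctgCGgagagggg
CDKN2B promoter: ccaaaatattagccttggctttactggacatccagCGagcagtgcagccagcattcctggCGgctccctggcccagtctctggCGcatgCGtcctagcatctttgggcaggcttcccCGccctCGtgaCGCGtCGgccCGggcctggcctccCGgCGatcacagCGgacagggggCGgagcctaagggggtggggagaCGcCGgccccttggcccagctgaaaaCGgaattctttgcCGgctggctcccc
MTAP promoter: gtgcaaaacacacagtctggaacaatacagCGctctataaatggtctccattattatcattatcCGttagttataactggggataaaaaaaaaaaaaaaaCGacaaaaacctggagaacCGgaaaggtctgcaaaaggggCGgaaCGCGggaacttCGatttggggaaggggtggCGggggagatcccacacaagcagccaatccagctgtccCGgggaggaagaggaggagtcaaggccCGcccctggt
FOCAD promoter: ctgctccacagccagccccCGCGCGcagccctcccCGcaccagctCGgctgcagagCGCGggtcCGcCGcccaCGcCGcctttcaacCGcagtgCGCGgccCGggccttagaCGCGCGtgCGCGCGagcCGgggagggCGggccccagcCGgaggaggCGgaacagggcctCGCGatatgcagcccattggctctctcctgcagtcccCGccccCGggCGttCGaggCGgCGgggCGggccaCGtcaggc
IFNA1 promoter: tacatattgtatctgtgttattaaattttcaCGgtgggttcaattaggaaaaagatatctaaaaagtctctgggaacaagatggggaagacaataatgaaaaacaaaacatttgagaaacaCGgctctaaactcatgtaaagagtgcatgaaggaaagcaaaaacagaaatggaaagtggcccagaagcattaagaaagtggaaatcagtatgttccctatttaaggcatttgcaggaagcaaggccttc

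The 2 inhibitors of the cyclin D kinases lay far from any peak. The nearest H3K4me3 peak was 1284634 bp from a start site of CDKN2A, and 55 of the 20098 genes lay farther from this mark. Its nearest H3K27Ac peak was at 1213395 bp, its nearest H3K4me1 peak at 1237128 bp and its nearest FAIRE peak at 1237874 bp. For CDKN2B, these distances were 1320438 bp to H3K4me3, with 53 genes farther, 1249199 bp to H3K27Ac, 1272932 bp to H3K4me1 and 1273678 bp to FAIRE. The 13 annotated start sites of CDKN2A and the 3 of CDKN2B thus shared the same nearest peaks, all to their left. The nearest H3K4me3 peak was 1.31 Mb from CDKN2B-AS1, a long non-coding RNA that runs antisense through CDKN2B, and 1.28 Mb from CDKN2A-DT, which lies next to the end of CDKN2A.

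MTAP, the member on the left, was the nearest to a peak. Its distances were 1116803 bp to H3K4me3, with 67 genes farther, 1045564 bp to H3K27Ac, 1069297 bp to H3K4me1 and 1070043 bp to FAIRE. DMRTA1, a gene of the doublesex-related transcription factor family, lay 1760991 bp from H3K4me3, with 26 genes farther, 1689752 bp from H3K27Ac, 1713485 bp from H3K4me1 and 1714231 bp from FAIRE. ELAVL2, which encodes a neuronal RNA-binding protein, was the farthest of the members from H3K4me3, at 1850395 bp, with 21 genes farther. Its nearest H3K27Ac peak was at 1266973 bp, while H3K4me1 and FAIRE were at 2432579 bp and 2433121 bp. Unlike the other 4 members, ELAVL2 had its nearest peak on the right in each of the 4 lists. Over all genes, 83 (0.413%) lay 1 Mb or more from H3K4me3, and the median distance to this mark was 0.

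No peak of any list was found in chr9:20757072-25093307, a span of 4336236 bp (4.34 Mb). It reached 1.21 Mb to the left and 3.10 Mb to the right of CDKN2A, filled 3.24 Mb of the 4 Mb window and ran 1.09 Mb past its end. The sequence of the span held 0 undetermined bases and had a GC content of 36.9%, against 40.9% over chromosomes 1 to 22 and X. At the genome's mean rate, a stretch of this length corresponds to 27.5 H3K4me3, 57.3 H3K27Ac, 40.9 H3K4me1 and 71.2 FAIRE peaks, or 197 in all, and 0 were listed. Peaks are unevenly spread, so this rate is a scale for the length of the span and not a test. A stretch of DNA that is lost and a stretch that is present without these marks both leave no peaks, and they cannot be told apart in lists of peaks. The copy number of the locus and the input reads were not analysed here.

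**Figure D1:**
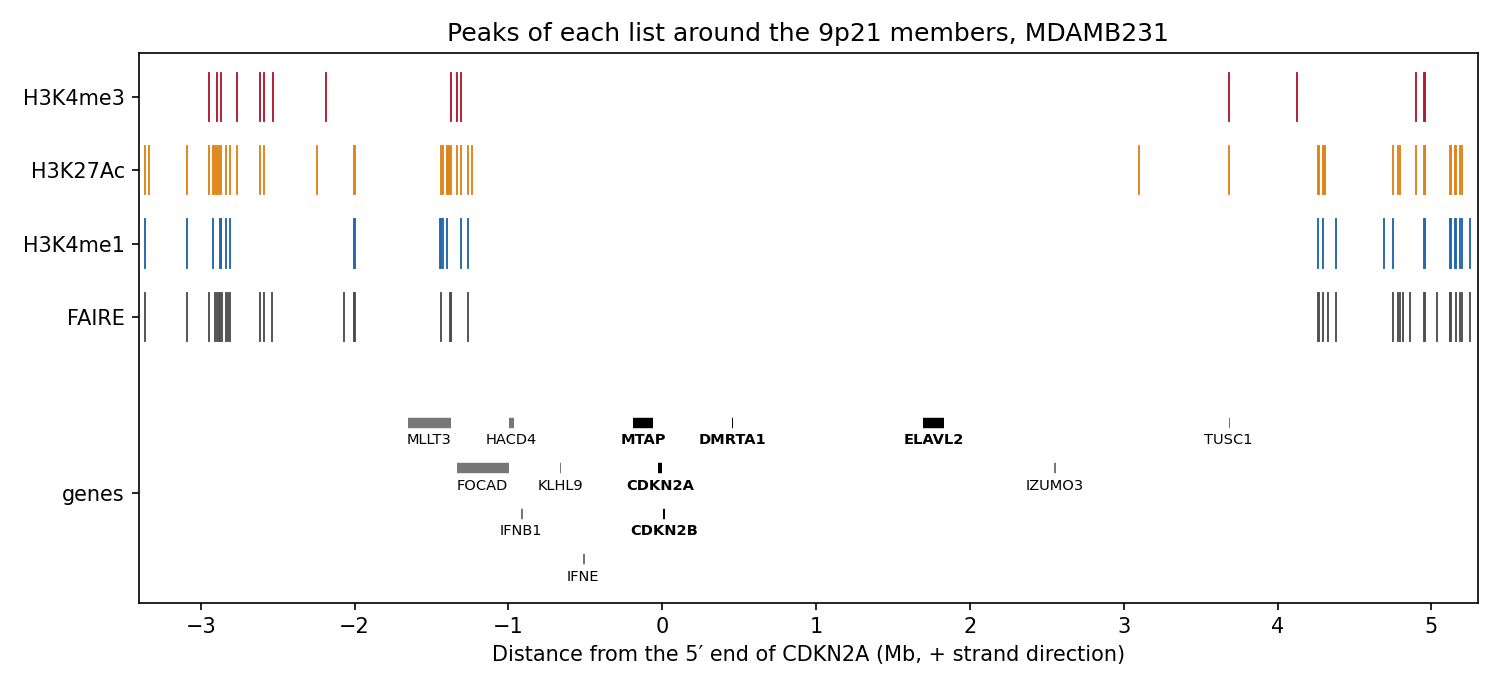
Position of every H3K4me3, H3K27Ac, H3K4me1 and FAIRE peak (1 row of ticks per list) and of named genes around the 9p21 members (bold), with the distance from the 5′ end of CDKN2A in Mb on the horizontal axis. The 4.34 Mb without a tick in any row holds all 5 members, and MLLT3, FOCAD and TUSC1 lie at or beyond its edges.

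Both edges of the span were H3K27Ac peaks without another mark, narrower and lower in score than the medians of that list, which were 2664 bp and 591. The left one, chr9:20755579-20757071, was 1.49 kb wide and had a score of 140.93, where the score is minus 10 times the log10 of the p-value against input, and 20% of the H3K27Ac peaks scored lower. It lay in an intron of FOCAD, 29.2 kb from the nearest start site of this gene. The right one, chr9:25093308-25095203, was 1.90 kb wide and had a score of 176.72, with 24.5% of the list lower. It was intergenic, and the nearest coding gene, IZUMO3, lay 547 kb back inside the span. The left edge was thus close to other peaks, whereas the right edge stood alone. The next peaks on the right were at TUSC1, 583 kb further on, with an H3K4me3 score of 2172.26 and an H3K27Ac score of 1395.57. A lone H3K4me3 peak with a score of 142.61 followed at 1026 kb, and H3K4me1 and FAIRE peaks were first listed at 1166 kb. If isolated peaks, with no other within 100 kb, did not end the span, it reached TUSC1 and measured 4919620 bp.

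The span differed in length between the lists taken by themselves, mainly at the right edge. It measured 4.99 Mb for H3K4me3, 4.34 Mb for H3K27Ac, 5.53 Mb for H3K4me1 and 5.53 Mb for FAIRE. The left edges by list lay between chr9:20685833 and chr9:20757072, all within FOCAD. By length within its own list, the span was the third for H3K4me3 (of 6346 spans of at least 100 kb), the sixth for H3K27Ac (of 5993), the ninth for H3K4me1 (of 5788) and the sixth for FAIRE (of 6386). Each of the 4 lists therefore had a few longer empty stretches elsewhere in the genome.

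Taking the 4 lists together, the span ranked 2 by length among 5670 peak-free spans of at least 100 kb without an assembly gap. The longest, on chromosome X, measured 5.07 Mb and held the start sites of 4 coding genes, CPXCR1, TGIF2LX, PABPC5 and PCDH11X. The next after 9p21 was a span of 3.71 Mb on chromosome 18 with 3 coding genes, CBLN2, NETO1 and FBXO15. The span at 9p21 held start sites of 25 coding genes, internal ones of FOCAD included, against a median of 1.0 among the 128 spans of 1 Mb or more. By number of coding genes it ranked 3, after a span of 0.818 Mb on chromosome 1 with 38 genes, most of them LCE and SPRR genes of the epidermis, and a span of 0.769 Mb on chromosome 21 with 26 genes, most of them KRTAP genes of hair keratin. When histone peaks with p above 1e-10 and the lower-ranking FAIRE peaks, those under the median of the list, were dropped, its rank by length was 6, and its edges were the same.

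**Figure D2:**
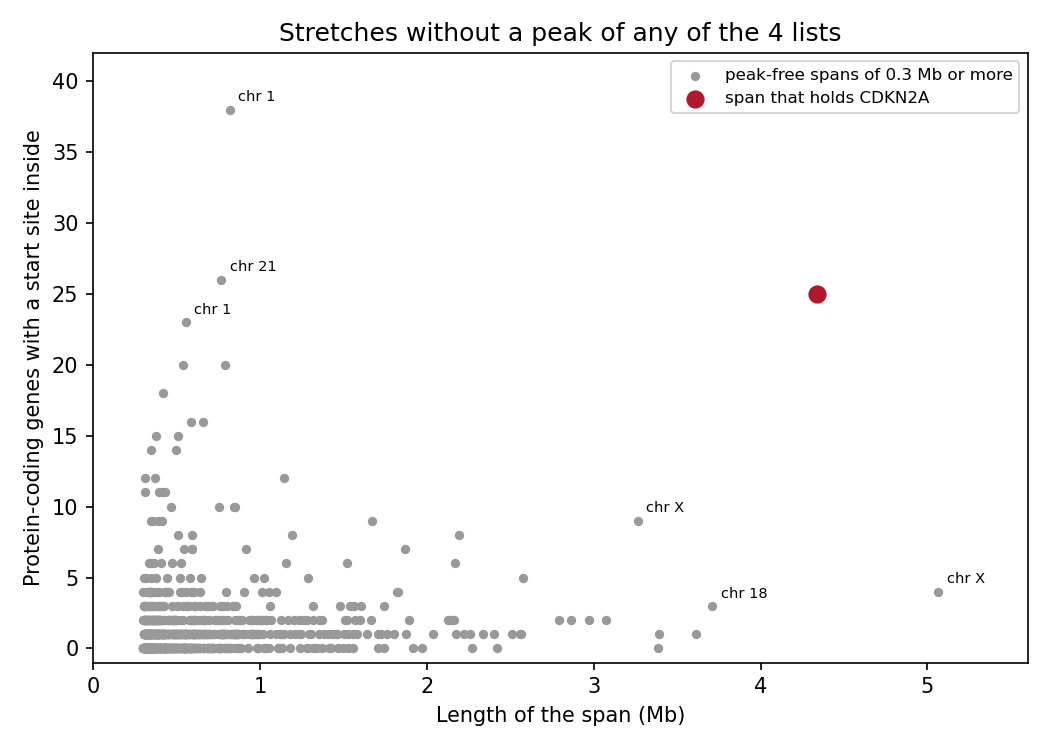
Length in Mb (horizontal axis) and number of protein-coding genes with a start site inside (vertical axis) of each stretch without a peak of any of the 4 lists; each grey point is a span of 0.3 Mb or more and the red point is the span that holds CDKN2A. The 9p21 span, with 4.34 Mb and 25 genes, lies to the right of and above most others, and the spans with more genes are shorter than 1 Mb.

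Beside the members, the coding genes held in full by the span were 16 type I interferon genes, 13 of them interferon alpha genes together with IFNB1, IFNW1 and IFNE, and HACD4, KLHL9 and IZUMO3. With the members, 24 coding genes and 19 lncRNA genes lay wholly in the span and by its definition have no peak in their bodies. The interferons, secreted antiviral cytokines that cells induce on infection, had CpG ratios between 0.00 and 0.32 with a median of 0.12, and 0 of 16 were CpG-rich. Most of them belonged to the class below 0.3, of which 5.70% carried H3K4me3 over all genes, or 28.9% when the ratio was taken at the 5′ end of the gene bounds. By both values, a lack of this mark was usual in that class. HACD4, an enzyme of very long chain fatty acid synthesis, and KLHL9, an adaptor of a CUL3 ubiquitin ligase, were CpG-rich genes, and their nearest H3K4me3 peaks were at 0.341 Mb and 0.650 Mb. IZUMO3, of a family of sperm proteins, lay 1.13 Mb from H3K4me3.

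The microRNA miR-31 is encoded in the span, in an intron of MIR31HG at chr9:21512114-21512184 on the minus strand, 755 kb from the left edge. MIR31HG, its host transcript, had no promoter peak, and the nearest H3K4me3 peak was at 0.718 Mb. Outside the span, miR-491 lies in an intron of FOCAD at chr9:20716104-20716187 on the plus strand, 41.0 kb before the left edge and among peaks. The mature sequences (RefSeq) are shown for this pair, on either side of the edge, with the seed (bases 2 to 8) in capitals, and their seeds differ.
hsa-miR-31-5p: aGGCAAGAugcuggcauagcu
hsa-miR-491-5p: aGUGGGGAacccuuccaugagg

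All peaks of the window lay in its first 757 kb (18.9%), in 14 merged regions, and 26 of the 29 lay wholly inside. By list, there were 3 H3K4me3, 12 H3K27Ac, 7 H3K4me1 and 7 FAIRE peaks. This stretch had 38.3 peaks per Mb, against 45.4 over chromosomes 1 to 22 and X, but the lists differed. H3K27Ac had 15.9 per Mb against 13.2 and H3K4me1 9.25 against 9.44, whereas H3K4me3 had 3.96 against 6.35 and FAIRE 9.25 against 16.4, both lower than over the genome. These rates rest on 3 to 12 peaks a list, and with stricter peaks (histone p at or under 1e-10, FAIRE at or above its median height) the H3K4me1 count fell from 7 to 2 and the FAIRE count from 7 to 4. The first 3 peaks overlapped at 20 Mb, with an H3K27Ac score of 3100, an H3K4me1 score of 377.5 and a FAIRE height of 104.225, about 208 kb from the nearest coding start site, that of SLC24A2. A gap of 549 kb followed. The other 26 peaks lay in or beside MLLT3 and FOCAD.

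MLLT3, which encodes a subunit of the super elongation complex, had marks at its promoter and inside the gene. Its H3K4me3 peak was 5.70 kb wide with a score of 3100, at which many scores of this list stand, and its H3K27Ac peak was 5.55 kb wide with a score of 1492.22. FAIRE at the same promoter had a height of 27.837, with 2.25% of the FAIRE peaks lower. Inside the gene, H3K27Ac scores ranged up to 399.85 and H3K4me1 scores up to 102.93. Of the respective lists, 43.2% of H3K4me3 and 73.3% of H3K27Ac peaks scored lower than those at the promoter. The H3K4me3 score equals the median of its list, and as many scores share this value it does not rank the peak. By width, the H3K4me3 peak of 5.70 kb was above the list median of 2524 bp. Other FAIRE peaks nearby were higher, with 44.196 at 2.12 kb and 67.597 at 2.59 kb from a start site and up to 69.523 inside the gene.

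FOCAD, which encodes focadhesin, ran from the stretch with peaks into the span, with 98.8 kb of its body to the left of the edge and 239 kb inside. Its first start site had an H3K4me3 peak of score 1130.14 and an H3K27Ac peak of score 72.66. At the start site whose promoter is printed above, the scores were 3100 for H3K4me3, 1356.98 for H3K27Ac and 61.01 for H3K4me1. Further into the gene, H3K27Ac (443.48), H3K4me1 (83.5) and FAIRE (72.189) overlapped at one place, 4.72 kb to 5.42 kb from an internal start site, and the edge peak came next. The start sites of FOCAD with H3K4me3 thus lay at its left end, without FAIRE, while its internal start sites inside the span and the larger part of its body were without peaks.

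H3K4me3 was found more often at promoters of higher CpG content. H3K4me3 was present at 5.70% of 2525 genes with a ratio below 0.3 (95% Wilson interval 4.86 to 6.68), at 23.9% of 2732 genes from 0.3 to 0.6 (22.3 to 25.5) and at 85.8% of 14841 genes at 0.6 or more (85.2 to 86.4). The intervals cover counting error over genes only. The ratio was taken in 3 ways, compared only after the data were seen, and the percentages depended on it. With the ratio at the 5′ end of the gene bounds they were 28.9%, 54.0% and 87.3%, so the upper class, which holds CDKN2A, CDKN2B, MTAP and ELAVL2, varied less than the lower ones. The ratio from RefSeq promoters was void because 76.1% of genes had one. Of the genes in the upper class, 2105 lacked H3K4me3, so the lack of the mark at a CpG-rich promoter was not rare by itself. Distance set the members further apart, but their distances all follow from the same peak-free span and are not separate results. Within the upper class 18 genes (0.121%) were as far from H3K4me3 as CDKN2A or farther, 17 (0.115%) for CDKN2B, 20 (0.135%) for MTAP and 8 (0.0539%) for ELAVL2, members included. In the middle class, 7 of 2732 genes (0.256%) were as far as DMRTA1.

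**Figure D3:**
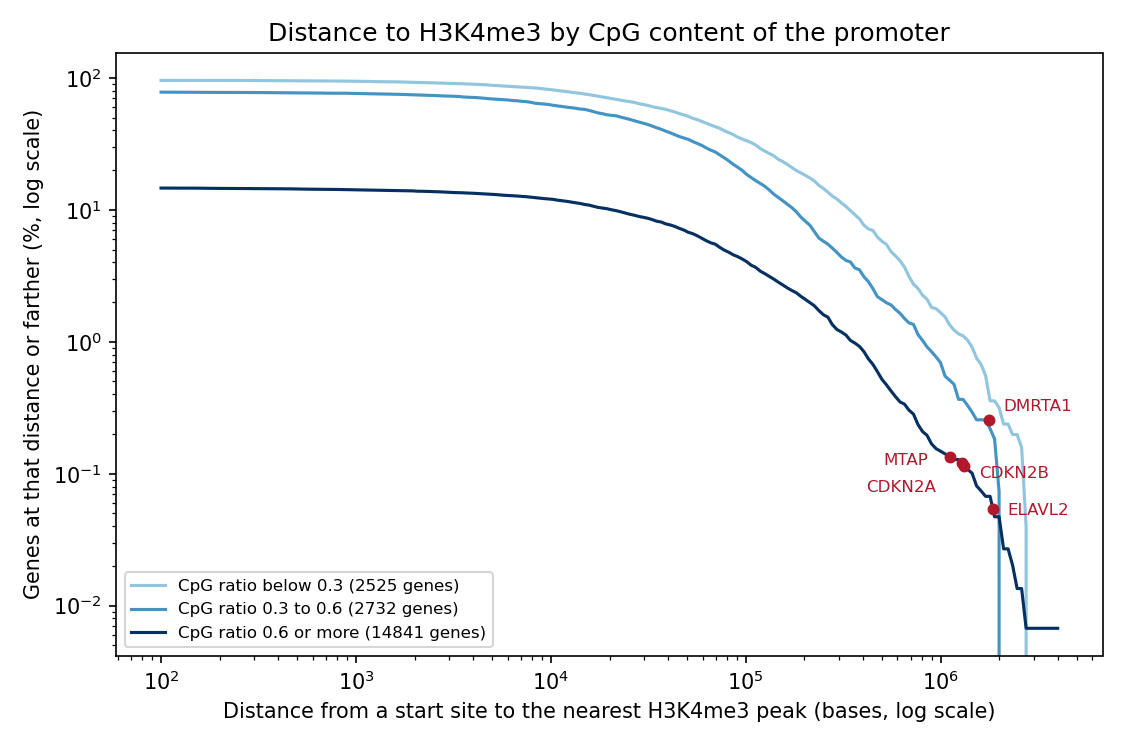
Share of protein-coding genes (vertical axis, %, log scale) whose nearest H3K4me3 peak is at a given distance or farther (horizontal axis, bases, log scale), with 1 line for each class of CpG ratio and red points for the members. CDKN2A, CDKN2B, MTAP and ELAVL2 lie where the line of the CpG-rich class has fallen to between 0.0539% and 0.135%.

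The CpG-rich genes of the span, HACD4, KLHL9, MTAP, CDKN2A, CDKN2B and ELAVL2, were 6 neighbours of this class in a row without promoter H3K4me3, over 2.79 Mb. This count was made after the data were seen. Of 1529 such runs, 7 were longer, among them runs of USP17L, HOXA, PCDHG and histone genes, and 4, this one included, had the same length. By CpG-rich genes in a peak-free span the 9p21 span ranked 3, after spans with protocadherin gamma (10) and protocadherin alpha (7) genes, and level with a span of zinc finger genes on chromosome 19. With 1 start site per gene and the ratio at that site, the rank was 1, and the parts of start sites and ratio in this change were not separated.

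Other genes of the pathways of the members were examined in the same lists. Of 26 genes of the G1 checkpoint, the cyclin D kinases, cyclins, other inhibitors, retinoblastoma and E2F proteins, genes of the ARF pathway such as MDM2 and MDM4, and the Polycomb proteins BMI1, CBX7 and EZH2, 26 had promoter H3K4me3 and 26 had H3K27Ac, against 67.3% and 63.5% of all genes. Most of the list was CpG-rich, a class with H3K4me3 at 85.8%. H3K4me1 was found at 8 (30.8%, against 20% of all genes), or at 4 with stricter peaks, and FAIRE at 12 (46.2%, against 39.3%), or at 9. The share of all genes with stricter peaks was not computed. The list includes CDKN2C and CDKN2D, which encode the other inhibitors of the family of p16 and p15, with H3K4me3 peaks of 5.66 kb and 5.92 kb and scores of 3100. The widest H3K4me3 peaks of the list were at CCND1, the gene of cyclin D1, with 10.3 kb, at CDK6, a target of p16, with 6.90 kb, at CCND2 with 6.29 kb and at CDKN1B, the gene of the inhibitor p27, with 6.12 kb. All 26 genes of this list thus had H3K4me3 and H3K27Ac, including CDK4 and CDK6, the kinases that p16 inhibits. At CCND2 the H3K27Ac score was 188, against 3100 at CCND1 and CDK6.

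Around MTAP, 12 genes were examined, of methionine salvage and polyamine synthesis together with PRMT5, which belongs to neither. H3K4me3 was found at 12 and H3K27Ac at 12, against 67.3% and 63.5% of all genes, and all 12 were CpG-rich. H3K4me1 was found at 1 (8.33%, against 20%), which was PRMT5, and FAIRE at 5 (41.7%, against 39.3%), close to its share over all genes, but with stricter peaks these counts were 0 and 3. The widest H3K4me3 peaks were at ENOPH1, an enzyme of the salvage pathway downstream of MTAP, with 6.08 kb, at MAT2B and MAT2A, subunits of the enzyme that makes S-adenosylmethionine, with 5.20 kb and 5.18 kb, at AMD1 with 5.18 kb, at ODC1 with 4.69 kb and at SMS with 3.54 kb. PRMT5, an arginine methyltransferase inhibited by methylthioadenosine, had H3K4me3 of 3.49 kb, H3K27Ac with a score of 552 and FAIRE with a height of 171. In both lists, H3K4me3 and H3K27Ac were found at each gene, which most CpG-rich genes share for H3K4me3, and the members of the locus had neither. No gene expression was measured in these data.

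**Figure D4:**
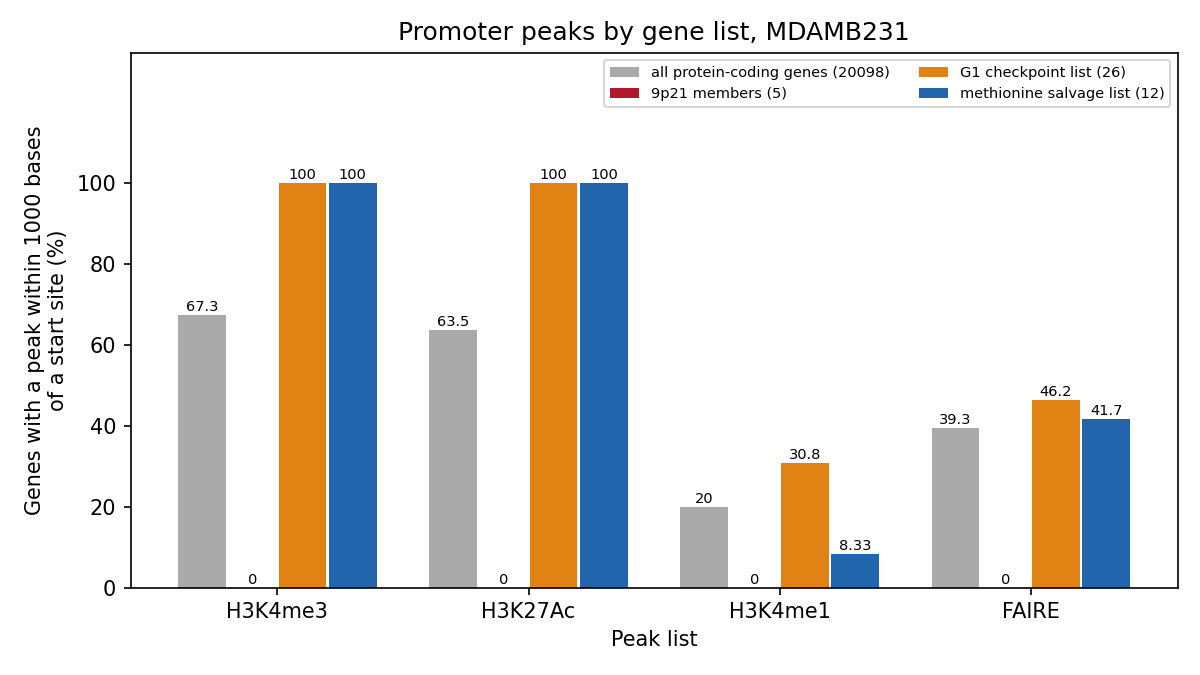
Percent of genes with a peak within 1000 bases of a start site (vertical axis) in each peak list (horizontal axis), for all 20098 protein-coding genes, the 5 members at 9p21, the list of 26 G1 checkpoint genes and the methionine salvage list of 12 genes, PRMT5 included. The members are at 0 in all 4 lists, while both pathway lists are at 100% for H3K4me3 and H3K27Ac.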

How the data were processed

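The peaks of MDAMB231 were used as the authors deposited them, in 4 lists, each combined from 2 samples. Per the methods of the study, the authors aligned single-end reads with BWA to GRCh37 (hg19), discarded duplicate reads and those with poor mapping quality, and called peaks against input with MACS for the histone marks and with FindPeaks for FAIRE. The version of MACS is not given in the sources used here, and the submitters' processing notes also name HOMER and TopHat. For histone marks, the deposited score follows MACS, a −log10 p-value multiplied by 10. Many H3K4me3 scores and some H3K27Ac scores stand at 3100, whereas the highest H3K4me1 score was 2123. FAIRE peaks carry the signal height that the authors deposited, on a scale that is not stated. Dropping ambiguously mapped reads lowers coverage in repeated sequence, and its part in the results was not tested.

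The starts of peaks were taken as counted from 0 and are printed counted from 1. Start sites and gene bounds were from GENCODE v44 lifted to GRCh37. A gene was called when a peak shared at least 1 base with 1000 bases on either side of a start site. Peak-free spans were ranked from 100 kb up, and 153 with an assembly gap (1000 or more undetermined bases) were left out. The CpG ratio was computed on GRCh37 from 250 bases before to 50 after a start site. Promoter sequences were from RefSeq, which held all 5 members. Python 3.11.15, numpy 2.4.6, pandas 2.3.3 and statsmodels 0.14.6 were used, and overlaps were checked against bedtools 2.31.1 on simulated data. With combined lists there was no test between groups. The members and lists were chosen with earlier results of these data known. Genes named are the members, coding genes between 20 and 24 Mb, non-coding genes beside a member or an edge, and genes at the edges. Named too were genes of the neighbouring spans in rank, markers, and from each pathway list up to 6 genes with the widest H3K4me3 peak. Outside these rules, SLC24A2 was named as the coding gene nearest to the first peaks of the window. MDM2, MDM4, BMI1, CBX7 and EZH2 were named to describe the G1 checkpoint list. MIR31HG, both microRNAs, CDK4, PRMT5 and the gene families of other spans and runs were named after their values were seen. Alternatives were stricter peaks, subsets of the lists, other promoter windows, start sites and window bounds and other CpG ratios.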

Additional observations from a re-analysis of the deposited data

How the results depend on the processing

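Of 70 values recomputed under another setting, 49 were kept, 21 moved and 0 reversed. Counts and rates were taken as kept within 1.5 times the reported value, percentages by CpG class within its 95% Wilson interval, a narrower limit, and lengths and ranks when identical. Many of those kept could not have changed and say nothing of stability. The 16 counts of members with a promoter peak stayed at 0 because the settings either narrowed a call already at 0 or widened it by far less than the distance to a peak, the rank by length uses no start sites, and pathway lists already complete cannot gain from a wider window. The span measured 5526863 bp with FAIRE alone and 4919620 bp when isolated peaks did not end it. With stricter peaks (MACS p at or under 1e-10, FAIRE at or above its median height), its rank by length was 6, the window held 2 H3K4me1 and 4 FAIRE peaks, the G1 checkpoint list had 4 genes with H3K4me1, and the methionine salvage list 0 with H3K4me1 and 3 with FAIRE. From 19 to 25 Mb there were 1.83 H3K4me3 and 3.67 FAIRE peaks per Mb, against 0.750 and 1.75 from 20 to 24 Mb. Within 2000 bases of a start site, H3K4me1 was found at 2 genes of the methionine salvage list, and H3K4me3 at 7.52% and 25.6% of genes in the lower and middle CpG classes.

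The CpG ratio was taken in 3 ways, all compared after seeing the data. The first used RefSeq promoters and gave 14.1%, 42.2% and 88.4% in the 3 classes but 76.1% of genes had such a sequence, too few for the comparison, which is void. The second used the 5′ end of the gene bounds and gave 28.9%, 54.0% and 87.3%. The third, the highest over all start sites, was kept because the promoter call also used all start sites. The rank by CpG-rich genes, added after seeing the data, was 1 with 1 start site per gene and the ratio at that site, and 2 with 1 start site per gene and RefSeq promoters, which is void for the same reason; both changed start sites and ratio at once. Causes of these changes were not tested.

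No paired analysis was possible because the samples of an assay were merged into a single list. The lists give no depth, so weak peaks missed at this depth cannot be told from absent ones, and no input coverage or copy number was used.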
